A study of Mus musculus with 47 samples.

Results

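The 5 casein genes of the mouse (*Csn1s1*, *Csn2*, *Csn1s2a*, *Csn1s2b* and *Csn3*) and *Wap*, the gene of whey acidic protein, were followed through pregnancy, lactation and involution in luminal and basal mammary epithelial cells. They were chosen by gene symbol, and all 6 were found among the 17078 genes with values. RNA was sequenced from cells of FVB/N mice, with no transgene or drug named, at 8 time points. The nulliparous groups were W10 (week 10) and M4 (month 4, the age-matched controls of the parous mice). The pregnant groups were P3.5 and P14.5 (3.5 and 14.5 days after coitus). The lactating groups were L3 and L10 (3 and 10 days after birth), and the involution groups were Id2 and Iw4 (2 days and 4 weeks after the pups were removed at day 10 of lactation). At each sort the glands of 4 mice were pooled and lineage-negative cells (an antibody mix with CD45, CD31 and CD140a was used to remove blood, endothelial and mesenchymal cells) were separated into CD24+ CD29lo cells (luminal) and CD24+ CD29hi cells (basal), with gates that were adjusted slightly from sort to sort, so that each library stands for a pool of animals and a gate, not for 1 mouse or a pure cell type. Values were at hand for 24 luminal libraries (3 at each time point) and 22 basal libraries (3 at each time point, but 2 at P14.5 and 2 at L10).

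Caseins are the main proteins of mouse milk. The calcium-sensitive caseins, α-S1 (*Csn1s1*), β (*Csn2*) and the pair of α-S2-like proteins (*Csn1s2a*, *Csn1s2b*), bind calcium phosphate through phosphorylated serines, and κ-casein (*Csn3*) coats the micelle and keeps it in solution. Whey acidic protein stays in the whey. Prolactin, acting through its receptor, the kinase Jak2 and the transcription factor Stat5, together with glucocorticoid and the factor Elf5, turns these genes on in the luminal cells that become alveolar secretory cells, whereas the basal layer, which holds the contractile myoepithelial cells, moves the milk out.

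The 5 casein genes lie together on chromosome 5, over 266 kb, and *Wap* lies alone on chromosome 11. RefSeq promoter windows (build GRCm38.p6, from 250 bases before to 50 bases after the start) were at hand for 4 of the 6 genes, *Csn1s1*, *Csn2*, *Csn1s2a* and *Wap*. The last 150 bases before the start of each are printed 5′ to 3′ on the strand of the gene, because 2 of the 4 stretches hold the letters TTCNNNGAA, the palindrome that Stat5 proteins are known to bind. Capitals mark these letters.
Csn1s1, chr5:87666058-87666207, plus strand: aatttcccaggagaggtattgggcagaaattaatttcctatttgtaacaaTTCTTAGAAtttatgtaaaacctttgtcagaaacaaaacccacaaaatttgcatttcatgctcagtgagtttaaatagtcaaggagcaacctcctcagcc
Csn2, chr5:87699426-87699575, minus strand: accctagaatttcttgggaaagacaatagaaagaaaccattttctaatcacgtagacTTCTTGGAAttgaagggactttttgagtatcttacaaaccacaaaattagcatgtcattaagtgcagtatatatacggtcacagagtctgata
Csn1s2a, chr5:87774300-87774449, plus strand: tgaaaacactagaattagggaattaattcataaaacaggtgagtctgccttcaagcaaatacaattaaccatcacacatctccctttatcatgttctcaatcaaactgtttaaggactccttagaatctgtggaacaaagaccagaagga
Wap, chr11:6638650-6638799, minus strand: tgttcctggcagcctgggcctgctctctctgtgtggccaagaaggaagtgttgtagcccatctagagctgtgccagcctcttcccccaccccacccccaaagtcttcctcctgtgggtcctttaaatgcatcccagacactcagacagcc
The match began 100 bases before the start in *Csn1s1* and 93 bases before it in *Csn2*. *Csn1s2a* held the letters 21 bases after the start, outside the printed stretch, and the *Wap* window did not hold them. In all, 6.88% of the 11722 promoter windows of genes in the table held TTCNNNGAA. The letters TGTTCT, part of the site of the glucocorticoid receptor, were searched on both strands and stood in the *Csn1s2a* window alone of the 4 (12.7% of all windows). The letters TTGGC, part of the site of nuclear factor I, stood in the windows of *Csn2* and *Wap* (50.2% of all windows). No searched match overlapped another in these 4 windows. A match describes the letters only.

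Expression is given in CPM, read counts scaled to sequencing depth, here to a library size that the authors adjusted with edgeR's factor, so that the values of a library sum to between 675541 and 2909036. The libraries held 4398806 to 20023054 reads in the 17078 genes with values, and shares of reads are of this total. The authors had left out genes with low counts and genes with very many reads and low variability. The lowest level read as detection was 3 reads, between 0.170 and 1.05 CPM, a limit set by counting error alone. Changes are log2 differences of CPM + 1 with their standard error, from 1 limma fit over all 46 libraries and all 17078 genes. A gene was called when the fold was at least 2 and the false discovery rate (FDR), the Benjamini-Hochberg adjusted p, was under 0.01. On this scale the changes of genes with few reads are understated.

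Markers of the cell types were checked before the milk genes. All 8 luminal markers (among them the keratins *Krt8*, *Krt18* and *Krt19* and the factor *Elf5*) were present in each of the 24 luminal libraries, and their sum was between 4335 and 9513 CPM. The 8 basal markers (among them *Krt5*, *Krt14* and *Acta2*, the smooth muscle actin of myoepithelial cells) summed to between 87.6 and 2488 CPM in luminal libraries, highest in L10 replicate 5, and to between 11773 and 73818 CPM in the basal libraries of every time point other than Id2. In the basal group of Id2 they summed to 1360 CPM in replicate 2, 17629 in replicate 4 and 1100 in replicate 6. Replicates 2 and 6 of that group therefore stood apart from their label. Replicate 6 held 71669 CPM of 6 fibroblast markers, and replicate 2 held 9153 CPM of 6 endothelial and 3720 CPM of 3 adipocyte markers. Replicate 4 held 10155 CPM of the fibroblast markers and 10412 CPM of 4 pericyte markers, and the luminal library of Id2 replicate 6 held 5192 CPM of the fibroblast markers, against 223 and 485 CPM in the other two. Tests that rest on the basal group of Id2 are given with and without replicates 2 and 6, apart from the falls of *Csn1s2b* and *Wap* to Iw4, given with them. All 4 pericyte markers (*Rgs5*, the most abundant, *Pdgfrb*, *Cspg4* and *Notch3*) were detected in every basal library. Their sum there was 89.7 to 117 CPM at W10, 50.4 to 112 at P3.5, 1078 to 1188 at P14.5, 1488 to 6759 at L3, 8544 to 15226 at L10, 2318 to 10412 at Id2, 150 to 349 at Iw4 and 92.3 to 190 at M4. The 6 endothelial markers, with *Pecam1* or *Cdh5* the most abundant, summed to 53.2 to 122 CPM at W10, 6.11 to 38.8 at P3.5, 283 to 519 at P14.5, 572 to 862 at L3 and 56.1 to 85.2 at Iw4 in basal libraries, and adipocyte markers (3 of 5 with values, *Fabp4* the most abundant) to 12.6 to 39.4, 1.34 to 14.4, 93.0 to 253, 480 to 931 and 40.4 to 105. Immune markers summed there to 9.20 to 18.8, 2.32 to 7.83, 17.9 to 37.0, 16.4 to 56.4 and 12.5 to 18.5 CPM. At Id2 they summed to 35.8 to 73.9 CPM. The pericyte, endothelial, adipocyte and immune sums were thus higher at P14.5 and L3 than at P3.5, as basal *Csn2* was. Their part in the basal results was not tested. In luminal libraries the endothelial markers summed to a median of 4.71 CPM at P3.5 and to 17.0 to 228 CPM at P14.5, 91.4 to 403 at L3, 74.9 to 238 at Id2 and 8.25 to 14.3 at Iw4, and the adipocyte markers to 0.836 to 3.24, 11.5 to 104, 31.6 to 81.2, 45.8 to 117 and 4.90 to 12.6 at the same time points. The immune markers there summed to 6.87 to 10.6, 15.8 to 46.5, 17.1 to 64.6, 32.0 to 142 and 14.6 to 16.6 CPM. These sums were thus higher at L3 and Id2 than at P3.5 and Iw4, and at P14.5 than at P3.5, in luminal libraries too. Their part in the luminal results was not tested. The 8 basal markers summed in luminal libraries to 87.6 to 204 CPM at P3.5, 232 to 375 at P14.5 and 476 to 1340 at L3. At Id2 and Iw4 they summed to 144 to 286 and 100 to 250 CPM. They too were thus higher at P14.5 than at P3.5 and at L3 than at P14.5, and their part was not tested. The luminal pericyte sum was between 105 and 296 CPM at all 8 time points. In bulk cells, fewer cells of a type and less RNA per cell cannot be told apart.

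In luminal cells 4 of the 6 genes were called higher at mid pregnancy, *Csn1s2b* and *Wap* at the start of lactation, and *Csn3* at neither step. All 6 differences were positive at both steps, each with an unadjusted p under 0.05 (limma). Together the 6 genes took up to 58.2% of the reads that a library had in genes with values. Of the reads of a luminal library the 6 genes together took 1.00% to 2.57% at W10 and 1.28% to 2.11% at P3.5. They took 15.4% to 19.8% at P14.5, and 27.1%, 46.8% and 58.2% in the 3 libraries of L3. At L10 they took 18.2% to 32.6% and at Id2, 2 days after the pups were removed, 23.9% to 31.6%. The range at Id2 thus lay within that at L10 and above that at P14.5. After 4 weeks the share was 4.19% to 8.65%, which overlapped the 3.03% to 10.0% of the M4 controls.

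Per kilobase of transcript, so that genes can be set against each other, *Csn2* had the highest level of the 6 at L3 (mean 348412 CPM per kb in luminal cells), followed by *Csn1s2a* (252575), *Csn1s1* (140539), *Wap* (97659), *Csn3* (42782) and *Csn1s2b* (25544). This order was the same in every L3 library. The length used was that of the longest protein-coding transcript paired with a RefSeq record, such as 1596 bases for *Csn3* and 551 for *Wap*. With other lengths the levels would differ, and the order was not checked for them. Replicate 6 raised the means, with *Wap* at 74713, 19047 and 199218 and *Csn1s2b* at 9757, 3458 and 63416 in replicates 4, 5 and 6. At W10 the same measure was 4847 for *Csn2*, between 2086 and 2218 for *Csn1s1*, *Csn1s2a* and *Csn3*, 10.6 for *Wap* and 0.224 for *Csn1s2b*. The W10 means of *Csn2* and *Wap* rested on replicate 3. In replicates 3, 5 and 6 *Csn2* was at 10064, 1448.5 and 3028 and *Wap* at 27.4, 2.16 and 2.26. *Csn3* was at 765, 2255 and 3238, above *Csn2* in replicates 5 and 6. The 4 genes *Csn1s1*, *Csn2*, *Csn1s2a* and *Csn3* were thus well above the floor of 3 reads in every luminal library of W10, whereas *Wap* had 10 to 150 reads and *Csn1s2b* had 1 to 3.

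**Figure D1:**
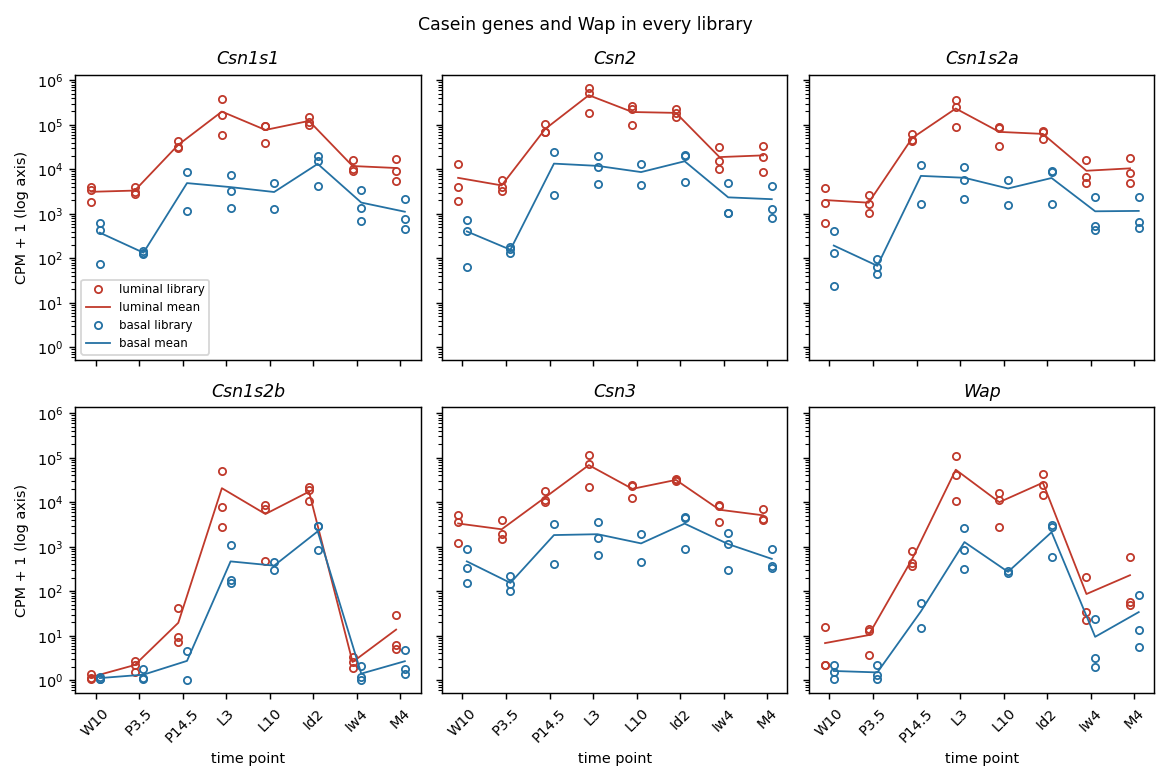
Level of each of the 6 genes (CPM + 1, log axis) in every luminal and basal library by time point, with a line through the group means. *Csn1s1*, *Csn2*, *Csn1s2a* and *Csn3* are well above the floor at W10 and lie higher at P14.5, apart from basal *Csn3*, which overlaps between these groups. *Wap* and *Csn1s2b* start far lower and cover a wider range, and at L3 every basal point lies below every luminal point of the same gene.

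For *Csn2* the luminal libraries of replicates 3, 5 and 6 at W10 held 13376, 1925 and 4024 CPM, and those of replicates 2, 4 and 6 at P3.5 held 3207, 5791 and 4071. At P14.5 (replicates 2, 3 and 5) they held 103552, 70309 and 68910 CPM. At L3 (replicates 4, 5 and 6) the values were 512152, 188022 and 688943 CPM. The first 2 groups overlapped, the P14.5 libraries all lay above both, and the L3 libraries all lay above P14.5 with a wide spread among themselves. *Csn2* then held 99220, 222636 and 260625 CPM at L10 (replicates 4, 5 and 6) and 225473, 150308 and 180653 at Id2 (replicates 2, 4 and 6). Iw4 (replicates 3, 5 and 6) had 31228, 9995 and 15302 CPM, and M4 (replicates 1, 2 and 6) had 8499, 19165 and 34109. Ordered by the mean of log2 (CPM + 1), the luminal groups ran L3, Id2, L10, P14.5, M4, Iw4, W10 and P3.5, and the only neighbours in this order whose libraries did not overlap were P14.5 and M4.

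*Wap* behaved differently from *Csn2* in its starting level. Its luminal libraries held 15.1, 1.19 and 1.24 CPM at W10, and 2.68, 12.0 and 13.4 at P3.5. They held 799, 432 and 365 CPM at P14.5. At L3 they held 41167, 10495 and 109769 CPM. No library of P14.5 reached any of L3, and none of P3.5 reached any of P14.5. The values were 2803, 11476 and 15849 CPM at L10 and 43978, 23951 and 14547 at Id2, which overlapped. At Iw4 they were 203, 21.7 and 32.6 CPM and at M4 56.5, 47.5 and 582. Both late groups lay above all W10 libraries, and the share of all genes without overlap was not counted for these groups.

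*Csn1s2b*, the other α-S2-like casein, was still low at mid pregnancy. Its luminal libraries held 0.101, 0.0701 and 0.373 CPM at W10, which is 1, 1 and 3 reads, and 0.569, 1.25 and 1.78 CPM at P3.5. At P14.5 they held 40.9, 8.55 and 6.33 CPM, when its neighbour *Csn1s2a* was already at 62023, 45852 and 43783. At L3 *Csn1s2b* held 7903, 2801 and 51367 CPM, at L10 466, 8769 and 7081, and at Id2 18657, 22295 and 10852. Its 3 Id2 libraries all lay above its L10 libraries, beside 24.9% of all genes without overlap between these groups, and Id2 had the highest mean of log2 (CPM + 1), which was so for no other member, whereas the mean CPM was highest at L3. At Iw4 it was back at 2.32, 0.853 and 1.53 CPM, which is 18, 5 and 12 reads, below the 5.36, 4.04 and 28.9 CPM of M4. The share of all genes without overlap between Iw4 and M4 was not counted.

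The remaining members started, like *Csn2*, well above the floor. *Csn1s1* held 3388, 1883 and 4109 CPM at W10 and 164405, 59357 and 371139 at L3, and *Csn1s2a* held 3739, 629 and 1754 at W10 and 250732, 88260 and 358114 at L3. *Csn3* had the narrowest range, with 1221, 3600 and 5168 CPM at W10 and 70478, 21938 and 112424 at L3. In the same order of luminal groups, L3 came first and P3.5 or W10 last for each of these 3 genes. L3 and Id2 overlapped and Id2 lay above L10 for *Csn1s1* and *Csn3*, whereas for *Csn1s2a* the groups L3, L10, Id2 and P14.5 overlapped from one neighbour to the next.

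Entry into pregnancy was compared first. None of the 6 was called between W10 and P3.5 in luminal cells (1.82% of all genes were called), and none had an unadjusted p under 0.05. Between P3.5 and P14.5 *Csn1s1*, *Csn2*, *Csn1s2a* and *Wap* were called higher, 4 of 6 members against 0.814% of all genes called higher. *Wap* rose by 5.83 ± 1.04 (adjusted p = 0.000562, limma), *Csn1s2a* by 4.91 ± 0.87 (0.000539), *Csn2* by 4.23 ± 0.84 (0.00173) and *Csn1s1* by 3.41 ± 0.77 (0.00612). The differences of *Csn3* (2.46 ± 0.77, adjusted p = 0.0649) and *Csn1s2b* (2.74 ± 0.88, adjusted p = 0.0725) were not called. In all 6 genes the P3.5 and P14.5 libraries did not overlap, as in 31.2% of all genes. The median change of the 6 was 3.82, that of all genes 0.00. Both groups came from the same RNA amplification batch but from separate sequencing lanes. In every comparison of time points other than Iw4 against M4, which shared a lane, lane and time point cannot be told apart. The *Csn1s1* call was lost whichever of the 6 libraries was left out (adjusted p between 0.0139 and 0.0403). Without P3.5 replicate 2 the calls of *Csn2* (0.0209) and *Wap* (0.0123) were also lost, *Csn2* being lost as well without P3.5 replicate 6 (0.0129) or P14.5 replicate 2 (0.0131), and the differences remained at 3.25 or more. With edgeR the *Csn1s1* (adjusted p = 0.0131) and *Wap* (0.0123) calls were lost.

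The step from mid pregnancy to lactation set *Csn1s2b* and *Wap* apart. These 2 genes were called higher at L3 than at P14.5 in luminal cells, beside 3.19% of all genes. *Csn1s2b* rose by 9.51 ± 0.88 (adjusted p = 4.43e-09, limma) and *Wap* by 6.17 ± 1.04 (9.09e-05), and both calls held whichever library was left out. The other 4 members differed by 2.00 (*Csn1s2a*, adjusted p = 0.126) to 2.35 (*Csn2*, adjusted p = 0.0554) and were not called, although the libraries of the groups overlapped in none of the 6 (30% of all genes did not overlap). The median change of the 6 was 2.25, that of all genes -0.02. P14.5 and L3 were amplified in separate batches, and batch and time point cannot be told apart here.

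Within lactation and into the first 2 days of involution no luminal call was made. From L3 to L10 all 6 differences were negative, from -1.11 (*Csn1s1*) to -2.18 (*Wap*), and the libraries overlapped (0.381% of all genes were called). L3 and L10 shared an amplification batch. From L10 to Id2 none of the 6 was called (4.56% of all genes were), with *Csn1s2b* nearest to the threshold at 2.43 ± 0.88 (adjusted p = 0.0653, limma), a difference of 1.07 to 3.18 when each library was left out in turn. In each of these comparisons 1 member had an unadjusted p under 0.05. L10 and Id2 came from separate batches, and batch and time point cannot be told apart.

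Between Id2 and Iw4 the fall was largest for *Csn1s2b* and *Wap*. In luminal cells *Csn1s2b* fell by 12.69 on the log2 scale (SE 0.88, adjusted p = 1.62e-12, limma), *Wap* by 8.85 (SE 1.04, 8.94e-08), *Csn2* by 3.44 (SE 0.84, 0.00285) and *Csn1s1* by 3.40 (SE 0.77, 0.00131), 4 of 6 members beside 6.12% of all genes called lower. *Csn1s2a* differed by -2.91 (adjusted p = 0.0144) and *Csn3* by -2.32 (adjusted p = 0.0272), and neither was called, although a fit of luminal libraries alone called *Csn1s2a* (adjusted p = 0.00829). None of the 6 overlapped between the groups (38.1% of all genes). The *Csn2* call was lost without Id2 replicate 2 (adjusted p = 0.0125), Iw4 replicate 5 (0.0233) or Iw4 replicate 6 (0.0130), and the 4 calls held without Id2 replicate 6, the library with more fibroblast markers. Id2 came from 1 batch and Iw4 from others, which cannot be told apart from time.

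Parity and age were compared with the control groups. Between Iw4 and M4, which span the same 3 amplification batches, none of the 6 was called in luminal cells (0% of all genes were), with or without the batch as a term. Without this term 1 member had an unadjusted p under 0.05. Between M4 and W10 *Wap* was the 1 member called, higher by 4.77 ± 1.04 (adjusted p = 0.00623, limma) beside 0.878% of all genes called higher. All 6 differences had this sign, 5 with an unadjusted p under 0.05. The *Wap* call was lost in 5 of the 6 fits that left out a library (adjusted p = 0.0450 without W10 replicate 5, 0.0340 without W10 replicate 6, 0.0240 without M4 replicate 1, 0.0107 without M4 replicate 2 and 0.0494 without M4 replicate 6), and also with edgeR (0.0242) and in a fit of luminal libraries alone (0.0131). With a pseudocount of 0.1 CPM *Csn1s2b* was called as well (adjusted p = 0.00803). M4 and W10 came from separate batches.

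**Figure D2:**
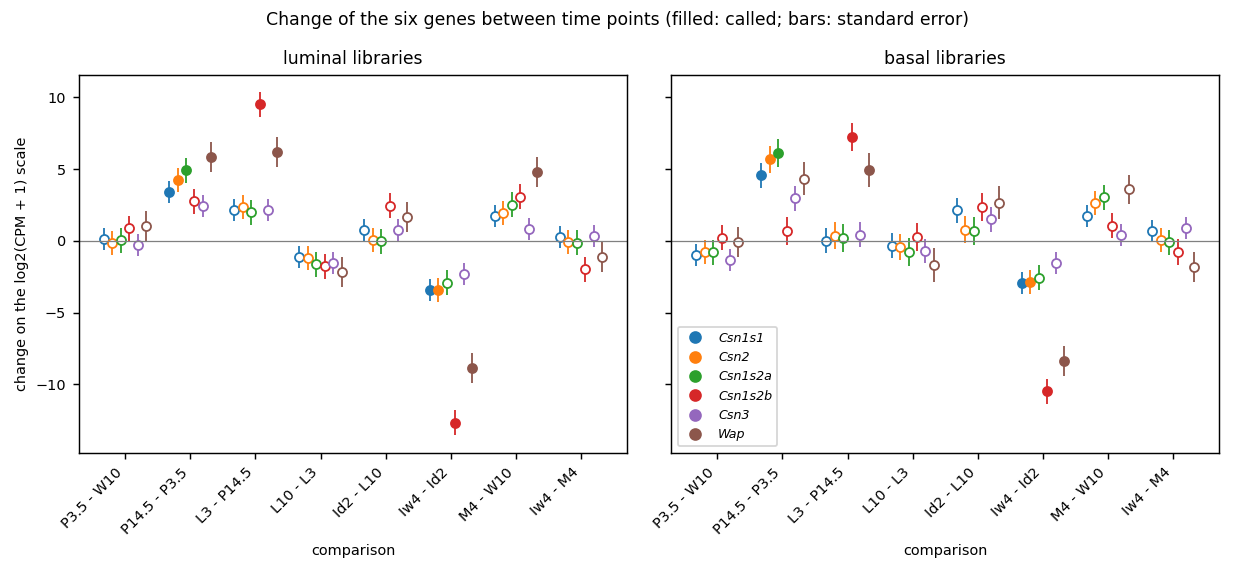
Log2 change (CPM + 1) ± SE of each of the 6 genes in 8 comparisons of time points, luminal cells in one panel and basal cells in the other, with filled points for changes that were called. The filled points fall on P14.5 against P3.5, L3 against P14.5 and Iw4 against Id2 in both cell types, with *Wap* in luminal M4 against W10 as the 1 further call.

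The mix of the 6 transcripts also differed between time points. Their shares of the reads of the 6 genes do not depend on how libraries were scaled, though longer transcripts weigh more. In luminal cells *Csn2* held 37.4% of these reads at W10 and 51.8% at L10 (means of 3 libraries), and its mean share was the largest at every time point. At W10 this mean rested on replicate 3, with *Csn2* at 61.5% there and 26.7% or less in replicates 5 and 6, and with *Csn3* at 5.62%, 44.8% and 34.3% in replicates 3, 5 and 6, so that *Csn3* was the larger in 2 of the 3 libraries. At Iw4 *Csn1s1* was just above *Csn2* in replicate 5 (30.5% and 30.0%). The mean share of *Csn3*, the micelle coat, was 28.2% at W10, 19.9% at P3.5 (17.3% to 23.8%), 7.06% at P14.5, 6.43% at L3 (5.92% to 6.73%) and 15.5% at Iw4. The P3.5 libraries all lay above those of L3, whereas 1 W10 library lay below them. *Wap* went from 0.0309% at W10 to 4.42% at L3 and 5.90% at Id2, and was 0.146% at Iw4. *Csn1s2b* went from 0.00127% at W10 to 1.52% at L3 and 3.87% at Id2. These shares were described without a test across time points.

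**Figure D3:**
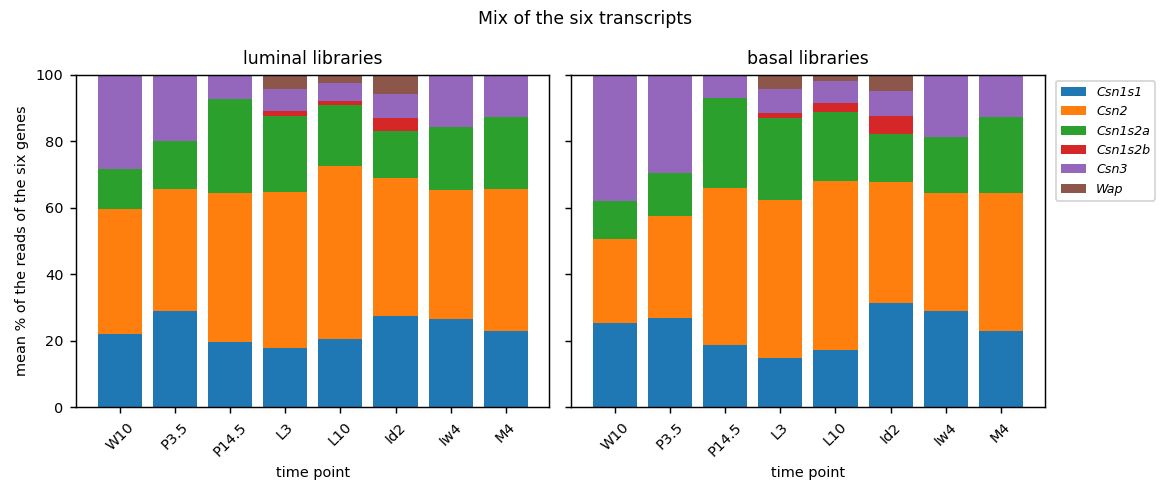
Mean percentage of the reads of the 6 genes taken by each gene at every time point, luminal and basal libraries side by side. The mean *Csn3* band is 28.2% at W10 (5.62% to 44.8% in single libraries) and 6.43% at L3 in luminal cells, and the *Wap* and *Csn1s2b* bands are visible only at L3, L10 and Id2.

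Basal libraries held *Csn1s1*, *Csn2*, *Csn1s2a*, *Csn3* and *Wap* at lower levels than the luminal library of the same sort in 22 of 22 sorts. *Csn1s2b* was under 3 reads in 8 of the 22 basal libraries, at 0 in 2 of them, and above the luminal level in 2 sorts. The 6 genes took 0.0346% to 0.226% of basal reads at W10, 0.0531% to 0.0695% at P3.5, 0.759% to 4.42% at L3 and 4.48%, 5.03% and 1.13% in replicates 2, 4 and 6 of Id2. The 2 basal libraries of P14.5 were far apart. Replicate 3 held 2584 CPM of *Csn2* and replicate 5 held 24300, and the 3 libraries of P3.5 held 131, 158 and 177. At L3 the basal libraries held 11408, 4626 and 19852 CPM of *Csn2*. They held 836, 310 and 2671 CPM of *Wap* and 183, 152 and 1068 of *Csn1s2b* at L3, against 13.8 and 54.8 of *Wap*, and 0 and 3.46 of *Csn1s2b*, at P14.5. Thus *Csn2* overlapped between the basal groups of P14.5 and L3, and *Wap* and *Csn1s2b* did not (36.5% of all genes did not overlap).

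Basal calls fell on 3 of the 4 comparisons that held luminal calls. Between P3.5 and P14.5 basal *Csn1s2a* rose by 6.15 ± 0.97 (adjusted p = 0.000112, limma), *Csn2* by 5.67 ± 0.94 (0.000206) and *Csn1s1* by 4.55 ± 0.86 (0.000678), 3 of 6 members beside 2.46% of all genes called higher. Without P14.5 replicate 5, which left 1 library in that group, assumed to vary like the other groups, the differences were 4.69, 4.06 and 3.08 in the same order and none was called (adjusted p = 0.0177, 0.0302 and 0.0763). The *Csn1s1* call was also lost in a fit of basal libraries alone (0.0135), and edgeR called *Csn3* (adjusted p = 0.00874). *Wap* differed by 4.33 ± 1.17 (adjusted p = 0.0150) and was called only when the sort was used as a replicate block (adjusted p = 0.00787) or with a pseudocount of 0.1 CPM (0.00402). Between P14.5 and L3 basal *Csn1s2b* rose by 7.20 ± 0.98 (adjusted p = 1.42e-05, limma) and *Wap* by 4.94 ± 1.17 (0.00518), beside 2.2% of all genes called higher, and *Wap* lost its call without P14.5 replicate 3 (a rise of 3.99) or 5 (adjusted p = 0.0294) or L3 replicate 4 (0.0135) or 6 (0.0252), and also with edgeR (0.0406), a pseudocount of 0.1 CPM (0.0139) or a fit of basal libraries alone (0.0118). The remaining members differed by 0.02 to 0.42 there and were not called. Fibroblast markers summed to 11676 and 5943 CPM in the basal libraries of P14.5 and to between 248 and 696 CPM in those of P3.5, and their part in these results was not tested.

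From Id2 to Iw4 basal *Csn1s2b* fell by 10.49 (SE 0.88, adjusted p = 2.66e-11, limma), *Wap* by 8.35 (SE 1.04, 1.21e-07), *Csn1s1* by 2.91 (SE 0.77, 0.00356) and *Csn2* by 2.88 (SE 0.84, 0.00829), beside 9.27% of all genes called lower. Without the Id2 basal libraries of replicates 2 and 6 the *Csn1s1* (-3.43, adjusted p = 0.0199) and *Csn2* (-3.51, adjusted p = 0.0341) differences were no smaller and were no longer called, with 1 library left in that group, assumed to vary like the other groups. Of single libraries, leaving out Id2 replicate 2 or 4 or Iw4 replicate 5 or 6 ended both of these calls (adjusted p = 0.0162 to 0.0536), as did a fit of basal libraries alone (0.0232 and 0.0312), and edgeR did not call *Csn2* (0.0209). No basal member was called between W10 and P3.5, L3 and L10, L10 and Id2, M4 and Iw4 or W10 and M4, where 6.76%, 1.14%, 13.3%, 0.00586% and 1.05% of all genes were called. All 6 basal differences were nevertheless higher at M4 than at W10, 4 of them with an unadjusted p under 0.05 (limma). Their median was 2.19, beside 2.21 in luminal cells. The basal *Csn3* difference changed sign without W10 replicate 6 or M4 replicate 6. From L10 to Id2 the basal differences ran from 0.71 (*Csn1s2a*) to 2.65 (*Wap*), and from 1.40 (*Csn2*) to 3.33 (*Wap*) without the Id2 libraries of replicates 2 and 6, with no call in either fit.

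Whether the basal change differed in size from the luminal change was tested for 3 steps. No member was called in any of the 18 tests (limma, FDR under 0.01), and none had an unadjusted p under 0.05, nor did edgeR call one. The differences between the basal and the luminal change from P14.5 to L3 were all negative, from -1.23 ± 1.56 (*Wap*) to -2.31 ± 1.31 (*Csn1s2b*), with adjusted p between 0.358 and 0.765. Of all genes 0.193% were called for P14.5 against P3.5, 0.703% for L3 against P14.5 and 3.74% for Id2 against L10. For Id2 against L10 they ran from -0.04 (*Csn1s2b*) to 1.35 (*Csn1s1*), and from 0.56 to 1.87 for the same genes without the Id2 basal libraries of replicates 2 and 6, with no call. With standard errors of 1.15 to 1.56 a difference in change of several log2 units was not detectable.

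The 2 cell types were then compared at each time point. At L3 all 6 genes were lower in basal cells, beside 9.87% of all genes called lower, with differences from -5.07 (*Csn1s2b*, SE 0.88) to -5.60 (*Csn1s1*, SE 0.77), with adjusted p (limma) of 7.27e-05 or less. The 6 differences lay close together, within less than 1 standard error. Of the 48 comparisons 38 were called, all lower in basal cells. *Csn1s1*, *Csn2*, *Csn1s2a* and *Csn3* were called at every time point. *Wap* was called at P14.5, L3, L10 and Id2, and *Csn1s2b* at L3 and Id2. With the sort as a replicate block *Csn1s2b* was also called at L10 (adjusted p = 0.00237, 0.0127 without the block) and *Wap* at Iw4 (0.00441, 0.0187 without). With edgeR no member was called at P14.5 (adjusted p = 0.0265 for *Csn1s1* to 0.0655 for *Csn2*) or Iw4 (0.0134 to 0.0195 for *Csn1s1*, *Csn2*, *Csn1s2a* and *Csn3*), *Csn1s2b* and *Wap* were not called at Id2 nor *Csn1s2a* at M4, and median-ratio scaling ended the calls of *Csn2*, *Csn1s2a* and *Wap* at P14.5 (adjusted p = 0.0103 to 0.0106). The background of genes called lower was 5.12% at W10, 4.64% at P3.5, 3.39% at P14.5, 10.9% at L10, 9.39% at Id2, 3.75% at Iw4 and 4.24% at M4. The 6 calls of Id2 were lost without the basal libraries of replicates 2 and 6 (differences of -2.49 to -3.20, adjusted p = 0.0393 to 0.156), with 1 basal library left, again assumed to vary like the other groups. Leaving out 1 sort left P3.5 and L3 at 4 and 6 calls, and left no call at W10 without replicate 6, at P14.5 without replicate 2 or 3, at L10 without replicate 6, at Id2 without replicate 6, at Iw4 without any 1 of its replicates, or at M4 without replicate 1 or 2. Over the fits that left out 1 sort the differences of the called genes were -1.91 to -5.08 at W10, -1.80 to -5.31 at P14.5, -3.18 to -5.63 at L10, -2.80 to -4.28 at Id2, -2.46 to -3.58 at Iw4 and -3.14 to -3.63 at M4. Leaving out replicate 3 or 5 of P14.5, or replicate 5 or 6 of L10, left 1 basal library there, assumed to vary like the other groups.

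To place the basal levels, the sum of the 6 genes in each basal library was set against the luminal library of the same sort, and the 8 luminal markers were treated alike. Over the 22 sorts with both libraries the basal level of the 6 genes was 1.69% to 31.6% of the luminal level, with a median of 6.48%. The summed luminal markers in basal libraries were 4.62% to 35.2% of their luminal level, with a median of 17.5%. *Krt18*, a keratin of simple epithelium, was at 3.66% to 24.4%, with a median of 8.89%. In 22 of 22 sorts the 6 milk genes were at a lower percentage than the summed luminal markers, and in 16 of 22 at a lower percentage than *Krt18*. The 8 markers include *Cd24a*, although both gates were CD24+. Without *Cd24a* the sum had a median of 15.8%, and the 6 genes were lower in 21 of 22 sorts, P14.5 replicate 5 being the exception. Without the Id2 sorts of replicates 2 and 6 the median of the 6 genes was 6.48% and that of the 8 markers 18.4%, and the 6 genes were lower in 20 of 20 sorts. At L3 the 6 genes stood at 2.21%, 2.50% and 2.71% and the markers at 23.7%, 19.7% and 14.1%. Single markers spread widely around their sum. In the same 3 sorts *Krt19* was at 77.4%, 58.8% and 96.5% and *Krt8* at 60.9%, 31.1% and 19.5%, whereas *Krt18* was at 10.6%, 4.02% and 8.42% and *Elf5* at 3.93%, 5.88% and 3.63%. *Lalba*, a milk gene outside the 6, was at 3.76%, 3.70% and 5.46%. The highest value of the 6 genes, 31.6%, was that of P14.5 replicate 5, which also had the highest value of the markers, 35.2%, and of *Krt18*, 24.4%. The authors checked the purity of both gates by sorting some of the cells again, and how far luminal RNA in the basal gate sets the basal levels was not tested.

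**Figure D4:**
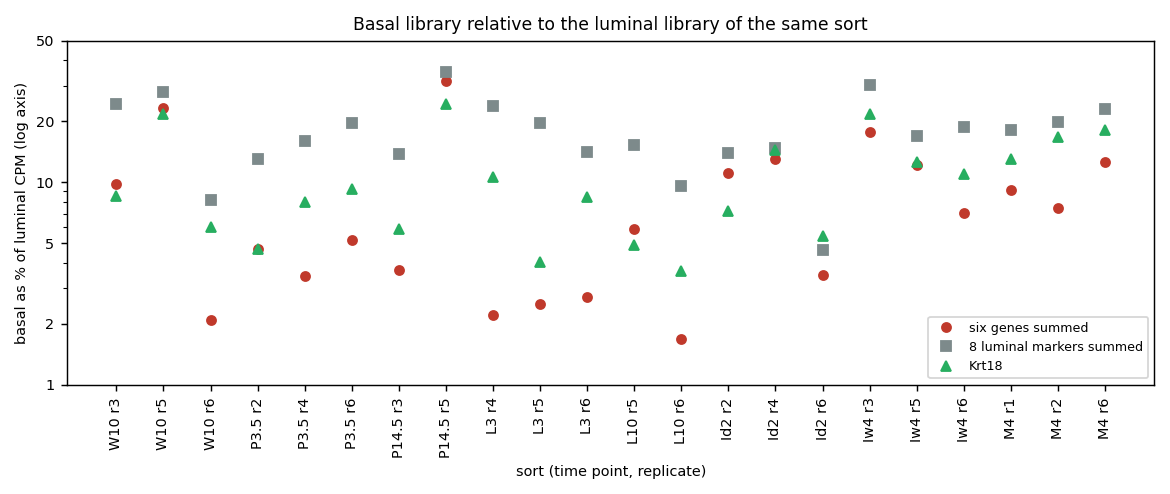
Basal level as a percentage of the luminal level of the same sort (log axis) for the 6 genes summed, the 8 luminal markers summed and *Krt18*, in the 22 sorts with both libraries by time point. The points of the 6 genes lie below those of the summed markers in every sort, farthest at L3, where the medians are 2.50% and 19.7%.

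The mix was compared between the cell types sort by sort. Over 22 sorts *Csn3* held 16.6% of the reads of the 6 genes in basal and 13.3% in luminal libraries, a difference of 3.32 points that was positive in 18 sorts (paired permutation test, two-sided, p = 0.00039, adjusted over the 6 shares 0.00234). *Csn2* held 38.5% and 42.0%, a difference of -3.46 points (same permutation test, p = 0.00451, adjusted 0.0135), and basal was higher in 6 sorts. *Csn1s1*, *Csn1s2a*, *Csn1s2b* and *Wap* did not pass an adjusted p of 0.05. In the 10 sorts of P14.5, L3, L10 and Id2 alone the *Csn3* difference was 0.590 points and the *Csn2* difference -0.831 points (exact paired permutation test, adjusted p = 0.305 and 0.570). On a log-ratio scale (log2 of reads + 1, centred on the 6 genes) *Csn3* was not called (0.06, adjusted p = 0.463). That scale is set in part by *Csn1s2b*, which had under 3 reads in 8 basal libraries and is raised there by the added read while the centring lowers the others, so the calls made on it, that of *Csn2* included, are not read. Without the basal Id2 libraries of replicates 2 and 6 the *Csn2* difference was -3.05 points (adjusted p = 0.0505) and that of *Csn3* 3.65 points (adjusted p = 0.00192).

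Other genes of milk protein and of the milk fat globule were counted on the same fit, from a list of 18. In luminal cells 6 of them rose from P3.5 to P14.5 (0.814% of all genes did) and none fell, with a median change of 1.96 beside 0.00 for all genes. From P14.5 to L3 9 rose (3.19% of all genes) and none fell (median 2.47 beside -0.02), and from Id2 to Iw4 9 fell (6.12% of all genes, median -2.21 beside 0.00). *Glycam1*, a mucin-like milk protein, had luminal means of 40.8 CPM at P3.5, 14561 at P14.5 and 120985 at L3, and rose by 8.85 ± 1.49 from P3.5 to P14.5 (adjusted p = 0.000253, limma), while the difference from P14.5 to L3 was not called (2.70, adjusted p = 0.244). Per kilobase it stood at 188745 CPM at L3, between *Csn1s2a* and *Csn1s1*. *Pigr*, which carries antibodies into milk, rose by 4.42 and *Btn1a1*, butyrophilin of the fat globule membrane, by 3.70 from P3.5 to P14.5 (adjusted p = 0.000539 and 0.00348).

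A second set of milk genes, which shared a gene with the first, rose from P14.5 to L3, as *Wap* and *Csn1s2b* did. *Ltf*, lactoferrin, had luminal means of 200 ± 57.4 CPM at P14.5 and 8276 ± 2339 at L3 (SD, n = 3), a rise of 5.36 ± 0.75 (adjusted p = 7.09e-06, limma). *Cidea*, a lipid droplet protein, rose by 4.65 (adjusted p = 1.26e-05). *Lalba*, α-lactalbumin, the partner of the lactose-making enzyme, rose by 4.61 ± 0.85 (adjusted p = 0.000254) from 13.4 ± 3.85 CPM to 353 ± 114. *Lalba* differed by 1.03 (adjusted p = 0.681) from P3.5 to P14.5. Unlike *Wap* and *Csn1s2b*, it was higher at W10, with a mean of 90.9 CPM (34.9 to 169), than at P14.5 (9.45 to 17.2). Its highest mean was at Id2, 1175 ± 775 CPM, against 146 ± 84.3 at L10, a difference that was not called (2.93, adjusted p = 0.0186). In basal cells at L3, 17 of the 18 genes were lower than in luminal cells (9.87% of all genes were, median -5.14 beside 0.10 for all genes), and *Pthlh*, a hormone that mobilises calcium, was higher (2.40 ± 0.36, adjusted p = 1.3e-06).

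The regulators listed for these genes (12, among them the prolactin receptor *Prlr*, *Jak2*, *Stat5a*, *Elf5*, the glucocorticoid receptor *Nr3c1* and *Nfib*) gave no luminal call from P3.5 to P14.5, P14.5 to L3, L10 to Id2 or Id2 to Iw4. Since 0.814% of all genes rose in the first of these, 3.19% rose in the second, 4.56% were called in the third and 6.12% fell in the last, 0 of 12 is close to the background. *Elf5* had luminal means of 138 ± 29.2 CPM at P3.5, 439 ± 21.4 at P14.5 and 647 ± 271 at L3, and differed by 1.68 ± 0.52 over the first of these steps (adjusted p = 0.0609). *Prlr* had 2571 ± 947 CPM at W10, 757 ± 100 at P3.5, 291 ± 54.9 at P14.5 and 760 ± 277 at L3, and its differences were -1.39 (adjusted p = 0.453) and 1.33 (adjusted p = 0.296) over the last 2 steps. *Stat5a* was between 62.2 and 134 CPM at all 8 time points. *Elf5* was called higher in basal cells at P14.5 than at P3.5 (2.41, SE 0.58, adjusted p = 0.00642, limma), beside 2.46% of all genes. The 2 basal libraries of P14.5 were far apart here too. Against the luminal library of the same sort, basal *Elf5* stood at 5.21% in replicate 3 and 35.1% in replicate 5. At P3.5 it stood at 6.40% to 8.90%. In basal cells at L3, where 9.87% of all genes were lower, *Prlr* (-4.52, SE 0.80, adjusted p = 1.86e-05, limma), *Elf5* (-4.46, SE 0.52, 9.78e-09) and *Stat5a* (-1.35, SE 0.33, 0.0013) were lower, and *Pgr*, the progesterone receptor, was higher (2.24, adjusted p = 0.00907).

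Caseins are phosphorylated in the Golgi and leave the cell with calcium and phosphate. Of 10 genes listed for these steps 9 had values, and 3 rose in luminal cells from P3.5 to P14.5, beside 0.814% of all genes. These were *Fam20c*, the casein kinase of the Golgi (2.30 ± 0.46, adjusted p = 0.00173, limma), its partner *Fam20a* (2.14, 0.00441) and *Slc34a2*, a phosphate carrier (3.84, 0.00071). From P14.5 to L3, where 3.19% of all genes rose, the 3 that did were *Atp2b2*, the calcium pump of the apical membrane (5.91 ± 0.63, adjusted p = 6.15e-08), *Slc34a2* (3.49, 0.000752) and *Atp2c2*, a calcium and manganese pump of the secretory pathway (2.81, 0.00153). *Slc20a1*, another phosphate carrier, rose from L10 to Id2 (1.48, adjusted p = 0.00357), and 8 of the 9 fell from Id2 to Iw4, beside 6.12% of all genes. The median change of the 9 was 1.35 from P3.5 to P14.5, 1.23 from P14.5 to L3 and -2.40 from Id2 to Iw4, where that of all genes was 0.00, -0.02 and 0.00.

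**Figure D5:**
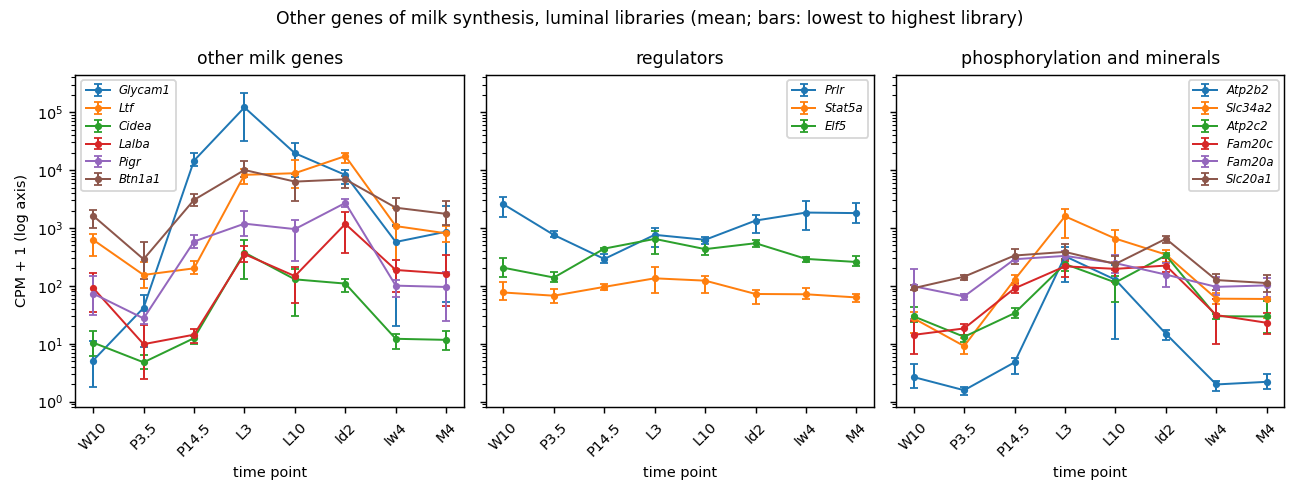
Luminal mean (CPM + 1, log axis) of genes named from the 3 lists by time point, with bars from the lowest to the highest library. *Glycam1*, *Pigr* and *Btn1a1* rise by P14.5, *Ltf*, *Cidea*, *Lalba* and *Atp2b2* rise between P14.5 and L3, and *Stat5a* stays between 62.2 and 134 CPM.

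Genes next to the 2 loci were looked at because the caseins are clustered. Within 500 kb of the casein cluster 4 other genes of the table were found, *Sult1d1*, *BC051076*, *Prol1* and *Amtn*, and none of them was called in any of the 8 luminal comparisons. Their luminal means at L3 were 2.96, 0.316, 0.822 and 0.416 CPM, the last 3 within or under the floor of 3 reads in those libraries (0.353 to 1.05 CPM), so that a change of these was hardly detectable. Within 500 kb of *Wap* there were 20, of which 1 was called in luminal cells from P14.5 to L3, near the 3.19% of all genes called higher there. A pair of others, *H2afv* and the pseudogene *Rps15a-ps6*, were called higher at Iw4 than at Id2 (4.39% of all genes) and at M4 than at W10 (0.878%), and the other 5 luminal comparisons held no call. The gene called from P14.5 to L3 was *Ramp3*, 19.9 kb away, a partner of the calcitonin-type receptors, which rose by 2.02 ± 0.52 (adjusted p = 0.0067, limma) to a mean of 6.80 CPM. *Tbrg4*, the nearest gene on the other side at 9.4 kb, had means of 72.4 CPM at W10 and 60.1 at L3.

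The genes most like *Csn2* over the 24 luminal libraries, by Pearson correlation of log2 (CPM + 1) among 10574 genes, were *Chrdl2* (0.970), *Lpl* (0.965), *Slc34a2* (0.962), *Atp13a4* (0.961) and *Thrsp* (0.961). Those most like *Wap* were *Sftpd* (0.970), *Ttc7b* (0.965), *Tbc1d24* (0.960), *Cel* (0.957) and *Hephl1* (0.957). The 2 lists, which leave out the members, shared no gene, although *Csn2* and *Wap* had a coefficient of 0.974 with each other, above every gene listed. Among the 6 members the coefficient ran from 0.851 (*Csn1s2a* and *Csn1s2b*) to 0.990 (*Csn2* and *Csn1s2a*). The libraries share the time points, scaling and batches, so these coefficients describe likeness of pattern and carry no p.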

How the data were processed

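RNA of sorted cells was amplified (NuGEN Ovation V2) and sequenced by the authors, who aligned reads with GSNAP to mm9, counted them per Ensembl gene with htseq-count and scaled them with edgeR. The deposited signal is a read count scaled to the effective library size (CPM). All values were whole multiples of 1 read (100%, within 0.01 reads), so reads were recovered and used in an alternative test. The basal library of P14.5 replicate 2, an outlier to the authors, was not analysed here. Replicates were separate sorts.

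Changes were tested with limma 3.58.1 (R 4.3.3) as a single model of log2(CPM + 1) that fitted 16 group means without covariates, with a mean-variance trend and Benjamini-Hochberg adjustment over 17078 genes. edgeR 4.0.16 on recovered reads was the alternative. Others were a pseudocount of 0.1 CPM, 2 other scalings, a filter at a mean of 5 CPM, a replicate block, fits of 1 cell type, and leaving out each replicate. On simulated data for L3 against P14.5 in luminal cells (17078 genes) 71% of 4-fold and 6% of 2-fold changes were called. The simulation gave every gene the same negative binomial dispersion, 0.1, and changed none of the 6 members. These percentages are therefore not the power for the 6 genes, whose L3 libraries spread widely (SD of *Csn2* 0.98 on the log2 scale). Shares within a sort were tested with 100000 sign flips. Tables and figures used Python 3.11.15, numpy 2.4.6, pandas 2.3.3 and matplotlib 3.10.9.

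The luminal and basal libraries of a sort come from the same pool of mice, by replicate number and sort date in the labels, and so are paired. Within the 22 sorts with both, the median correlation of their deviations from the group means was 0.25 (lowest -0.0048, above 0 in 21).

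Gene symbols came from a GENCODE M21 table, which matched 16897 identifiers and left 181. The exons of the 6 members share no bases with other genes. The members, lists and markers were chosen with earlier results of these data known. Genes were named by rule: the members, in each list up to 6 genes called in luminal L3 against P14.5, P14.5 against P3.5 or Id2 against L10 (largest fold first) with *Lalba*, *Prlr*, *Stat5a*, *Elf5* and *Fam20c* always, the nearest neighbours, and the 5 genes most like *Csn2* and *Wap*. *Pthlh* and *Pgr* in the basal comparison and *H2afv* and *Rps15a-ps6* near *Wap* were named after their values were seen.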

Additional observations from a re-analysis of the deposited data

How the results depend on the processing

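Single values of the 6 genes that were called kept their direction under every alternative, and of 162 values 38 changed sign under at least 1 alternative, none of them called in either fit (10 without a library left out). The calls among 48 in luminal cells, 11, were 8 with edgeR, 12 with a pseudocount of 0.1 CPM and 8 to 11 when each replicate was left out. The 9 basal calls were 5 in a fit of basal libraries alone, 7 when libraries were scaled to the reads of all other genes, 8 with edgeR and 5 to 10 when each replicate was left out. The 38 calls of basal against luminal were 26 with edgeR, where P14.5 and Iw4 had none, 35 with median-ratio scaling and 32 to 39 when each replicate was left out. Scaling to all other genes put the median of all genes at -0.27 for luminal L3 against P14.5 (-0.02 as deposited) and at 0.45 for Iw4 against Id2 in luminal cells (0.00 as deposited), and ended the basal *Csn1s1* and *Csn2* calls of Iw4 against Id2 (-2.33 and -2.30).

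With the sort as a replicate block there were 11 luminal calls, 10 basal, 40 of basal against luminal and 0 of 18 differences in change. Beside basal *Wap* at P14.5 against P3.5, and *Csn1s2b* at L10 and *Wap* at Iw4 in basal against luminal cells, the block changed no call of the 6 genes.

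Of the shares of the 6 transcripts, 2 were called, 1 without the 3 Id2 sorts, 0 in the sorts of P14.5, L3, L10 and Id2, 4 as log-ratios and 2 whichever single replicate was left out. Leaving out the Id2 basal libraries of replicates 2 and 6, chosen after seeing the data, gave 11 luminal, 7 basal and 32 basal against luminal calls and 1 share. Where not stated, the cause was not tested. A group of 2 or 3 pools limits what can be called, and levels under 3 reads could not be told from 0.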
